A study of Homo sapiens and Mus musculus with 66 samples.

Results

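The regions described here are the 208 stretches of the human genome that Lamin-B1 cTSA-seq called in K562 cells and that published TSA-seq of the same cell line, made with another lamin-B antibody, did not call. They are all the regions of the list the authors deposited under that description, out of 664 K562 cTSA-seq regions in all, and no measured value was used to pick among them. They add up to 185.9 Mb of hg19, measure 0.2 to 3.9 Mb with a median of 0.7 Mb, and have a GC content of 36.6 to 47.2% with a median of 40.5%. The question asked of them was how far the same stretches were called near the nuclear lamina in a second cell line, HCT116, and at which stages of its cell cycle.

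K562 is an established human myeloid leukemia line and HCT116 an established human colorectal carcinoma line, and the labels name no genetic change in either. In cTSA-seq, an antibody against Lamin-B1 brings a peroxidase to the lamina, the peroxidase deposits biotin-tyramide on what is close by, and biotinylated chromatin is pulled down with streptavidin (StrePD) and sequenced beside its input. Each HCT116 list stands for 1 condition: bulk cells, cells sorted as G1, S or G2 from growing cultures by DNA content, and G1 cells sorted 90 or 180 min after release from a nocodazole arrest in mitosis (90m G1 and 180m G1), each with 2 input and 2 StrePD libraries. Further lists from 1000000, 200000 and 50000 unsorted HCT116 cells gave, with bulk, 4 lists of unsorted cells, which served as the measure of how far lists of like cells differ, although the lists may share libraries. For 1000000 cells 1 input and 1 StrePD library are labelled, and for each of the smaller numbers 1 input and 2 StrePD libraries. No list carries signal, depth or replicate values, so no difference could be tested against replicate spread, and all comparisons below are descriptions.

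The nuclear lamina is a meshwork of lamins under the inner nuclear membrane, and chromatin that touches it is mostly gene-poor, AT-rich, late-replicating and little transcribed. Some of this chromatin is held at the lamina in nearly every cell type, while other stretches are near it in some cell types and in the interior in others. The lamina is taken apart in mitosis and is rebuilt in early G1, when contacts between chromatin and lamina form anew.

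A region was termed covered in an HCT116 list when at least 50% of its bases lay in regions of that list, partly covered when the share was above 0 and under 50%, and uncovered when it was 0 bp. The bulk and the 90m G1 lists stand apart and bear on all that follows. Of the bases of the 383 regions that both methods called depleted at the lamina in K562 cells, the 90m G1 list held 20.2% and the bulk list 4.40%, whereas the other HCT116 lists held 0.356 to 1.22%. Likewise, the bulk list held 11.1% of all protein-coding genes, against 4.89, 5.08 and 5.98% in the lists from 1000000, 200000 and 50000 cells. The main counts for bulk are therefore given with those of the other 3 lists of unsorted cells, and the part of these gene-rich calls in the results was not tested.

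Regions covered in bulk had a higher GC content than uncovered regions, with medians of 41.8 and 39.9%, while the stretches before the starts of their genes were alike in GC content in this list. As examples, the 150 bases before the start of 4 genes (hg19, gene starts of GENCODE 44, read along the gene's strand, 5′ to 3′, CG dinucleotides in capitals) are printed, a CG-rich and a CG-poor one from regions covered in bulk and likewise from uncovered regions. The examples were chosen after their values were seen, among the genes named by the fixed rule. DOCK1 (chr10:128593828-128593977, plus strand) and MYT1L (chr2:2335437-2335586, minus strand) lie in covered regions, and GRIP1 (chr12:67462943-67463092, minus strand) and ZNF658 (chr9:40836416-40836565, minus strand) in uncovered regions.
DOCK1: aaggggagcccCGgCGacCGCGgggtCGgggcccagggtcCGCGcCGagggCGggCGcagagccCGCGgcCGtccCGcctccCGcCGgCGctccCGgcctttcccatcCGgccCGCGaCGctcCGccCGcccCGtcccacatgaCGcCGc
MYT1L: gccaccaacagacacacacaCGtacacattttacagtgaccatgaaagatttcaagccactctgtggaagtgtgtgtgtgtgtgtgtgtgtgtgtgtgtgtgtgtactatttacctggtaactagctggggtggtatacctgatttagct
GRIP1: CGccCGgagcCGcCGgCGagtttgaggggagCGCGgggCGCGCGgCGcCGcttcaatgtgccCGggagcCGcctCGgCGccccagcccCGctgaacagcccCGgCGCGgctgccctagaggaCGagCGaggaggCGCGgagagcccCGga
ZNF658: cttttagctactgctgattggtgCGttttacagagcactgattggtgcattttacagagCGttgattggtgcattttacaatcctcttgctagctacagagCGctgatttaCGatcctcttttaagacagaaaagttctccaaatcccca

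DOCK1, a guanine nucleotide exchange factor for Rac, had 27 CG dinucleotides and 83.3% GC in this stretch, and GRIP1, a scaffold of glutamate receptors, had 25 and 79.3%, though the DOCK1 region as a whole had 44.4% GC and the GRIP1 region 39.0%. MYT1L, a neuronal zinc finger transcription factor, had 1 CG and 45.3% GC in a region of 45.5% GC, and ZNF658, a zinc finger gene, had 4 CG and 42.0% GC in a region of 39.6% GC. Both classes thus held CG-rich and CG-poor gene starts. Over all genes the 150 bases had a median of 58.3% GC (n = 162 genes) in regions covered in bulk and of 58.7% (n = 209) in uncovered regions. At least 10 CG dinucleotides were found for 45.7% and 40.2% of these genes, against 49.2% of 20141 protein-coding genes of the genome and 30.8% of 1366 genes in the regions that K562 cTSA-seq shared with TSA-seq. The 90m G1 list differed in this, with a median of 61.3% GC and at least 10 CG for 55.2% of 116 genes in covered regions, against 56.7% and 35.8% for 327 genes in uncovered regions. In the lists from 1000000, 200000 and 50000 cells, at least 10 CG were found for 32.8, 41.0 and 40.2% of the genes in covered regions and for 43.9, 42.5 and 41.9% of those in uncovered regions. The search was for the letters CG, which read the same on both strands.

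In bulk HCT116 cells, 49.8% of the bases of the K562 cTSA-seq only regions were called, which was 90 covered regions (43.3%, 95% Wilson interval 36.7 to 50.1%), 16 partly covered and 102 uncovered. Of the 90, 56 lay in the list over their whole length. For comparison, 26.9% of all 100 kb windows of the genome were called in bulk. The other lists of unsorted cells gave lower values, with 33.6% of the bases and 57 covered regions for 1000000 cells, 35.8% and 64 for 200000 cells, and 39.1% and 72 for 50000 cells, where 21.2, 21.9 and 22.8% of all windows were called. Thus like cells gave between 57 and 90 covered regions, and 46 regions were covered in all 4 lists. Of the 90 regions covered in bulk, 19 were covered in no other list of unsorted cells, and 9 regions were covered with fewer cells but not in bulk.

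Among the sorted stages, S phase cells had 70 covered regions and 40.2% of the bases, G1 cells 62 regions and 36.6%, and G2 cells 54 regions and 34.1%. The shares of bases lay within the range of the unsorted cells for all of these, as did the counts for S and G1, while the G2 count was below the lowest of them by a small margin. At 90 min after release 45 regions were covered with 27.3% of the bases, and at 180 min 49 regions with 27.4%, both below the range of the unsorted cells. All windows of the genome were called at 22.4% in S, 20.2% in G1, 20.0% in G2, 17.0% in 90m G1 and 20.5% in 180m G1, so in each list the regions were called more often than the genome as a whole. Wilson intervals for the share of regions covered were 27.6 to 40.3% in S, 24.0 to 36.3% in G1, 20.5 to 32.3% in G2, 16.6 to 27.7% in 90m G1 and 18.3 to 29.8% in 180m G1. They count regions as independent, which neighbouring regions of 1 list are not, and do not cover the spread between experiments.

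The 482 K562 regions that TSA-seq also called had another course along these stages. Their called share of bases was 47.0% in bulk, 47.4% in 180m G1, 44.4% in G2, 48.6% in S and 43.1% in G1, but 13.6% in 90m G1. Hence the K562 cTSA-seq only regions were called less than the shared regions in all sorted stages but 1, and more at 90 min after release, when 45 of 208 (21.6%) and 70 of 482 (14.5%) were covered. With 1000000, 200000 and 50000 cells the shared regions had 46.8, 48.8 and 48.4% of their bases called, more than the cTSA-seq only regions in each. By bases, bulk alone of the unsorted lists thus had the opposite order. By regions covered, bulk had the same order as those lists, with 43.3% of the cTSA-seq only and 45.0% of the shared regions. The order by bases in bulk and 90m G1 was not kept within windows of like GC content, where the shared regions were called more, as given below. No replicate spread was at hand to test these differences.

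**Figure D1:**
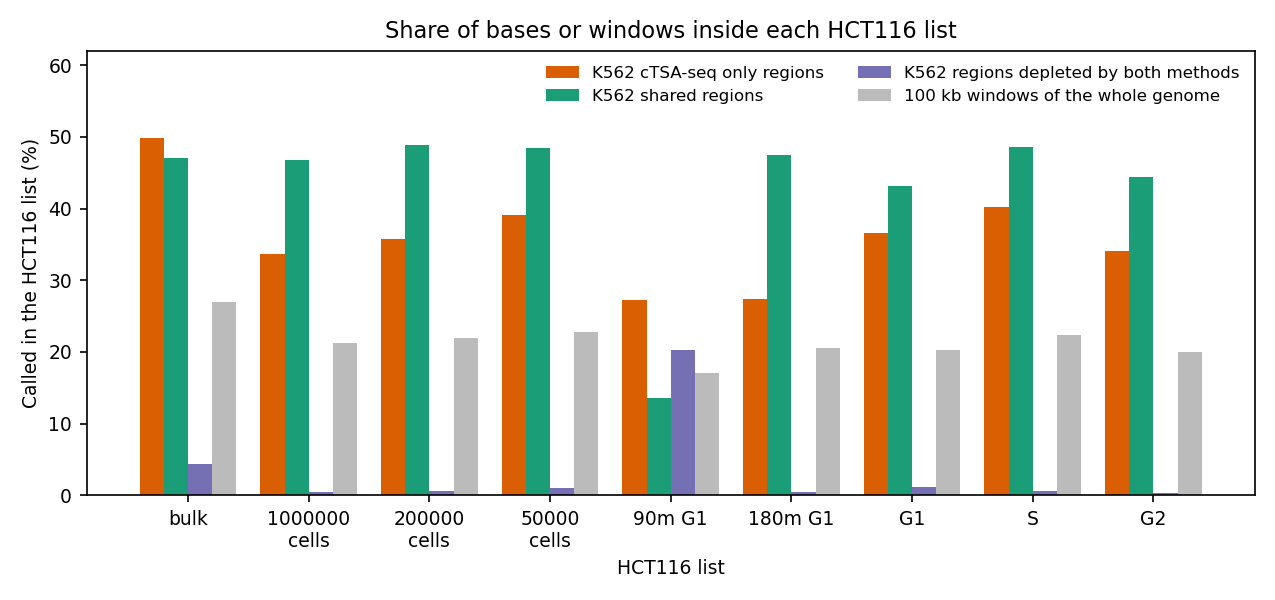
Share (%) of the bases of K562 cTSA-seq only, shared and depleted regions, and of all 100 kb windows of the genome, inside each HCT116 list (x axis), where each bar is 1 list and has no replicates. The cTSA-seq only bars stand between 27.3 and 49.8%, above the genome bar in every list, and are above the shared bars in bulk (49.8 and 47.0%) and 90m G1 and below them in all other lists, those of unsorted cells included.

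In bulk and in every sorted stage, most covered regions lay mainly in an HCT116 region that reached past the K562 region. In bulk, the HCT116 region that held most of a covered K562 region had a median size of 1.6 Mb (0.30 to 10.4 Mb) and reached past the K562 region in 77 of 90 cases, and in 13 of 90 it also took in a region that K562 cTSA-seq shared with TSA-seq. In G1, S and G2 the median size was 1.1 Mb. There the HCT116 region reached past the K562 region in 41 of 62, 46 of 70 and 34 of 54 cases. Such a shared region was taken in for 3 of 62, 5 of 70 and 2 of 54 covered regions. At 90 min the HCT116 regions were longer, with a median of 3.2 Mb and up to 25.5 Mb, and took in a shared region in 14 of 45 cases.

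Regions of higher GC content were covered more often. The regions were split by rank into 70 of low (36.6 to 39.8%), 69 of middle (39.8 to 41.3%) and 69 of high GC content (41.4 to 47.2%). In bulk 17, 23 and 50 regions of these groups were covered, which is 24.3, 33.3 and 72.5%. In the other lists of unsorted cells the low group had 17, 18 and 17 covered regions with 1000000, 200000 and 50000 cells, and the high group 25, 32 and 39. The lists of unsorted cells therefore gave nearly the same count in the low group and differed in the high group, where bulk had most.

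In 90m G1 nearly all covered regions were of high GC content. Of the 45 regions covered then, 41 were of high, 3 of middle and 1 of low GC content. At 180 min the counts were 12 in the low, 11 in the middle and 26 in the high group, so that the low and middle groups were at the level of the later stages while the high group was below it. In G1 they were 12, 10 and 40, in S 13, 14 and 43, and in G2 10, 10 and 34. Across regions, the rank correlation (Spearman's rho, n = 208) of the covered share with GC content was 0.60 in 90m G1, 0.44 in bulk, 0.35 in G1, 0.32 in S and G2, 0.22 in 180m G1, and 0.11 to 0.21 in the lists from counted cells. These are descriptions over regions of 1 list, which share libraries and lie on the same chromosomes.

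A higher call rate at higher GC was not limited to the K562 cTSA-seq only regions. Of the 100 kb windows of shared regions, 52.1% were called in bulk at low, 63.4% at middle and 75.7% at high GC content, with the same GC limits (n = 4122, 443 and 140 windows). Windows below 36.6% or above 47.2% GC were left out here and below. For windows of the cTSA-seq only regions the values were 32.9, 39.7 and 69.2%. With 50000 cells they were 31.7, 31.2 and 49.9%, and with 1000000 cells 31.2, 29.1 and 38.6%, so that in these lists the low and middle windows were alike. Windows of the whole genome within these limits (n = 8634, 3378 and 7602) went the other way, with 33.5, 28.3 and 25.4% in bulk and 27.6, 18.3 and 14.0% in G1. The 90m G1 list was unlike the others in this, with 12.7, 17.5 and 27.0% of these windows called from low to high GC. In that list windows of the cTSA-seq only regions had 6.10, 17.5 and 49.2%, and windows of shared regions 19.2, 47.4 and 72.1%. In bulk and 90m G1, windows of cTSA-seq only regions were thus called less than those of shared regions in each GC group.

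**Figure D2:**
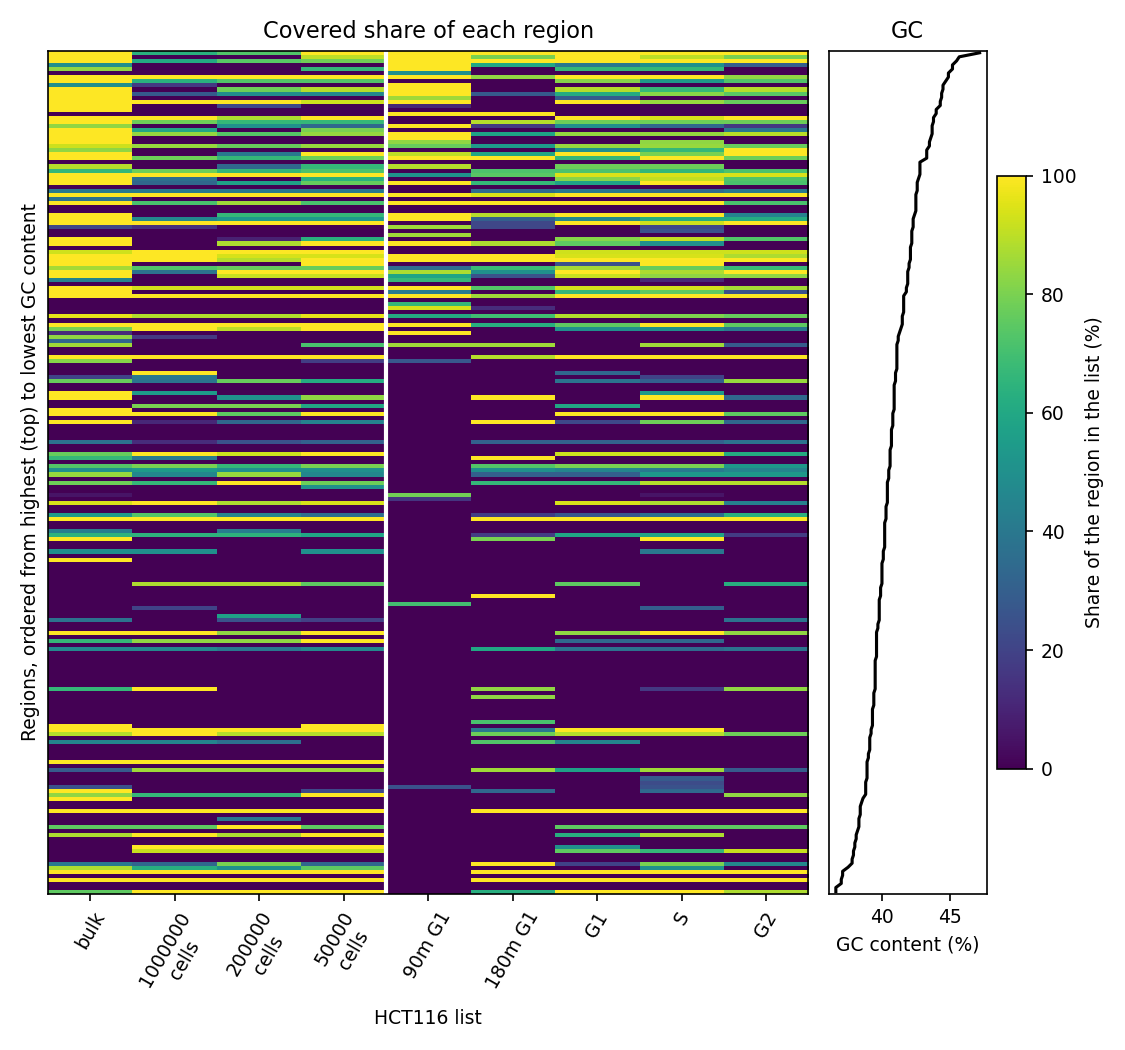
Covered share (%, colour) of each of the 208 regions (rows, ordered by GC content) in each HCT116 list (columns), with the GC content (%) of the rows at the right and the 4 lists of unsorted cells left of the white line. Calls crowd towards the top, in 90m G1 almost wholly so, and a broad band of rows is dark in every list.

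Longer regions were also covered more often. Under 0.5 Mb, 9 of 37 regions were covered in bulk, between 0.5 and 1 Mb 41 of 99, and from 1 Mb upwards 40 of 72, which is 24.3, 41.4 and 55.6%. With 1000000, 200000 and 50000 cells the shortest group had 6, 5 and 8 covered regions, the middle group 24, 29 and 31, and the longest 27, 30 and 33. In G1 the counts were 4, 27 and 31, in S 4, 30 and 36, and in G2 3, 20 and 31. In 90m G1 they were 0, 23 and 22, and in 180m G1 1, 26 and 22, so that the shortest regions were almost never covered in the first hours after mitosis. A region under 0.5 Mb holds few windows of 100 kb, and a single window decides more of its share. The shared K562 regions had the same order in bulk, with 31.4, 42.2 and 48.1% covered. The rank correlation of the covered share with size was 0.29 to 0.42 over the 9 lists (n = 208 regions), which was below that with GC content in bulk and 90m G1 and above it in the other lists.

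Size and GC content were related to each other (rho 0.28, n = 208), and the GC difference depended on size. From 1 Mb upwards, 28 of 31 regions of high GC content were covered in bulk, 12 of 30 of middle and 0 of 11 of low GC content. Between 0.5 and 1 Mb the counts were 20 of 29, 9 of 29 and 12 of 41. Under 0.5 Mb they were 2 of 9, 2 of 10 and 5 of 18, so that no higher share was seen at high GC among the shortest regions. For the regions from 1 Mb upwards, the lists from 1000000, 200000 and 50000 cells covered 18, 21 and 25 of the 31 at high GC content and 1, 2 and 1 of the 11 at low GC content. In 90m G1, 20 of 31 long regions and 21 of 29 regions of middle size were covered at high GC content, against 1 of 11 and 0 of 41 at low GC content.

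**Figure D3:**
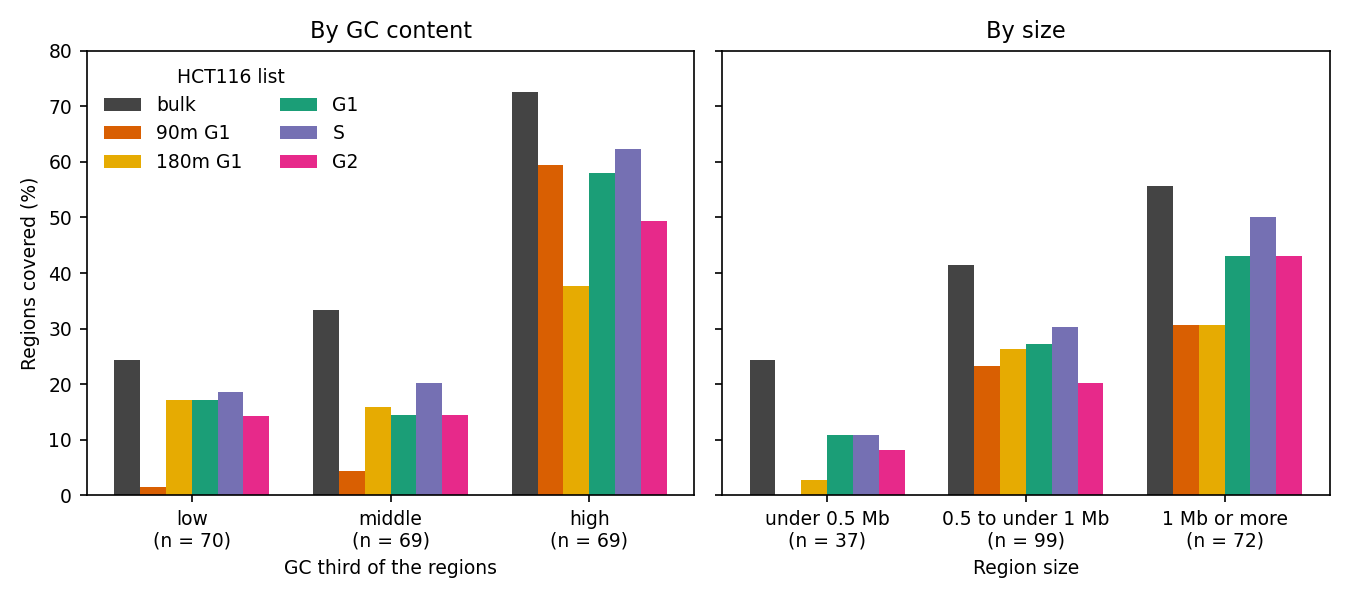
Share (%) of K562 cTSA-seq only regions covered in 6 HCT116 lists, by GC group (left) and by size (right), with the number of regions under each group, and bars are single lists without replicates. At high GC content the bars stand between 37.7 and 72.5%, above the other GC groups in every list, and from under 0.5 Mb to 1 Mb or more they increase in every list.

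The position along the chromosome was examined after these values were seen. Of 59 regions within 20 Mb of a chromosome end, 32 were covered in 90m G1, 37 in bulk and 26 in G1, and of 149 regions farther in, 13, 53 and 36 were. Distance was counted from the ends of the hg19 sequence, gaps included. Regions that start at 19.0, 14.3 and 16.1 Mb on chromosomes 14, 21 and 22 thus counted as near an end. All of them had 0% in 90m G1 and were covered in bulk and G1, and none was in the high GC group. Distance and GC content were related (rho -0.43, n = 208), so the comparison was made within the high GC group. There, 30 of 35 regions within 20 Mb of an end were covered in 90m G1, against 11 of 34 regions farther in. In bulk the same counts were 26 of 35 and 24 of 34, and in G1 21 of 35 and 19 of 34. In 180m G1 they were 19 of 35 and 7 of 34, and with 1000000, 200000 and 50000 cells 15, 19 and 20 of 35 and 10, 13 and 19 of 34. Within the high GC group, the share covered was clearly higher near the chromosome ends in the 2 early G1 lists. The gap was smaller with 1000000 and 200000 cells, and in bulk, G1 and 50000 cells the shares were nearly alike. Finer bins were 0 to 10, 10 to 20, 20 to 40 and over 40 Mb from an end. In 90m G1 the share fell from bin to bin, with 20 of 22, 10 of 13, 7 of 18 and 4 of 16 regions covered. Bulk had 19, 7, 11 and 13 covered regions in these bins and G1 16, 5, 9 and 10, with no steady order by distance.

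**Figure D4:**
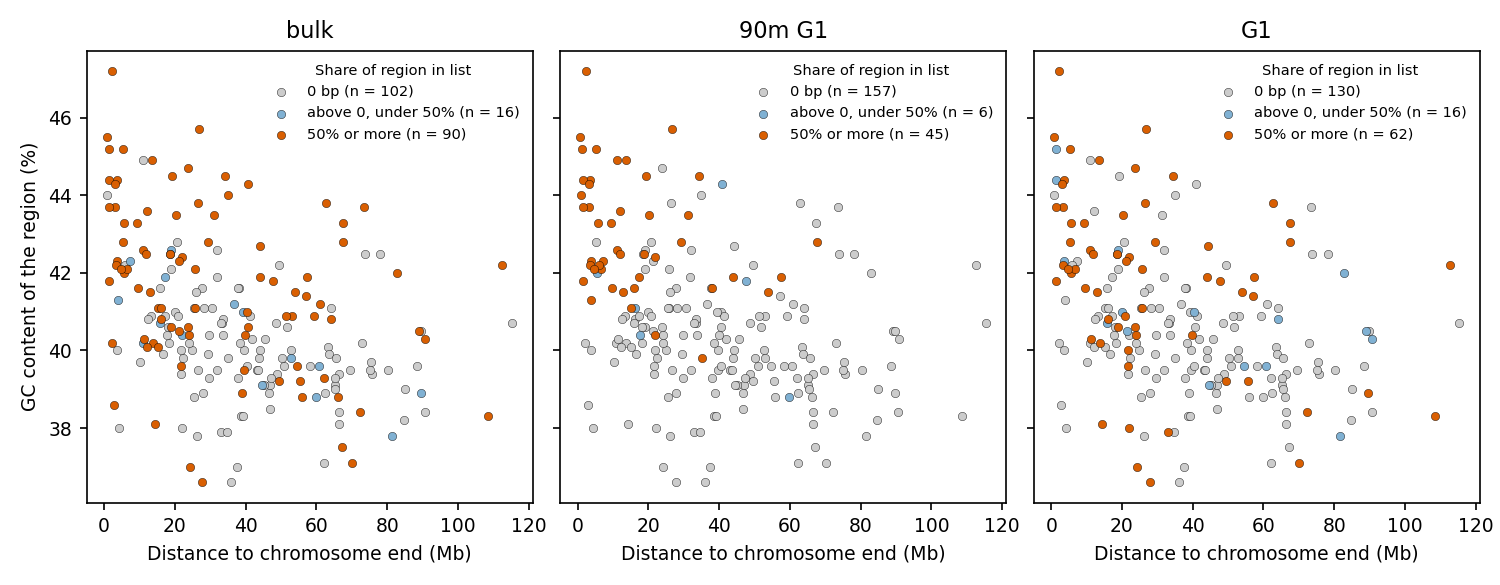
GC content (%) of each of the 208 regions against its distance to the nearer chromosome end (Mb) in bulk, 90m G1 and G1, with the class of the region as colour. Regions covered in 90m G1 gather at the upper left, at a median of 42.6% GC and 11.1 Mb, while those covered in bulk have medians of 41.8% and 24.1 Mb.

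The stages divided the regions as follows. In G1, S and G2 alike, 47 regions were covered, of which 33 were of high GC content and 46 were also covered in bulk. In all 6 lists (bulk and the 5 sorted stages) 19 regions were covered, all 19 of high GC content and 14 within 20 Mb of a chromosome end, and 15 of them were covered in the lists from counted cells too. At the other end, 83 regions had 0 bp in all 6 lists and 80 had 0 bp in all 9. These 83 regions had a median size of 0.50 Mb and a median GC content of 39.8%, and 9 of them were of high GC content. G1 and S had 58 covered regions in common, with 4 covered in G1 and not in S and 12 in S and not in G1. The early G1 lists differed more, with 24 regions covered in both, 21 at 90 min and not at 180 min, and 25 at 180 min and not at 90 min. These 2 lists also differed elsewhere, with 70 and 206 of the 482 shared regions covered and 20.2 and 0.434% of the depleted bases called. Stage patterns and overlaps were not counted for shared regions or all windows. Nothing particular to the K562 cTSA-seq only regions can therefore be read from these counts.

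Among the regions covered throughout was 1 of 2.3 Mb on chromosome 2 from 800001 to 3100000, 0.8 Mb from the chromosome end, with MYT1L as its longest gene. It was called over 100% of its length in bulk and in all 5 sorted stages, and over 60.9 to 78.3% in the lists from counted cells. A region on chromosome 10 from 132100001 to 133200000 had the highest GC content of all (47.2%), held TCERG1L, and was also called over 100% in all 6 lists. A region of 2.6 Mb on chromosome 3 (53900001 to 56500000) was covered over 61.5 to 96.2% in the 6 lists and carries ERC2, a protein of the presynaptic active zone, CACNA2D3, an auxiliary subunit of voltage-gated calcium channels, and the ligand gene WNT5A. WNT5A itself lay wholly within each of the 9 lists.

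The longest region of all, with DOCK1, runs on chromosome 10 from 128000001 to 131900000 and holds 11 protein-coding genes. It was called over 100% in bulk and in 90m G1, 28.2% in 180m G1, 74.4% in G2, 82.1% in S and 61.5% in G1, and 28.2 to 48.7% in the lists from counted cells, so its class differed among unsorted cells. Genes in it differed as well. MGMT, which encodes a DNA repair methyltransferase, lay wholly within all 6 lists, MKI67, the gene of the proliferation marker Ki-67, was wholly outside the 180m G1 and G1 lists, and EBF3, a transcription factor, was wholly outside the G2 list. With 1000000, 200000 and 50000 cells, however, MKI67 and EBF3 were wholly outside each list. MGMT lay in these lists over 11.4, 44.3 and 44.3% of its length, so lists of unsorted cells disagreed on all of these genes. The region of AUTS2, a gene of neural development, on chromosome 7 from 67600001 to 71100000 was called over 51.4% in 90m G1, 74.3% in 180m G1, 94.3% in G1, S and G2, and 100% in all lists of unsorted cells. Its share was thus lowest at 90 min after release.

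Of the regions covered in each of G1, S and G2, 23 had 0 bp in 90m G1. They had a median GC content of 40.6%, 4 of them lay within 20 Mb of a chromosome end, and 11 were covered and 11 uncovered at 180 min. The region of DSCAM, a cell adhesion gene of neurons, on chromosome 21 from 41100001 to 42900000 had 0% in 90m G1, 72.2% in 180m G1, 72.2% in G2, 66.7% in S and 72.2% in G1. The region of TSHZ3, a zinc finger homeobox gene, on chromosome 19 from 31000001 to 32600000 had 0% at both early times and 100, 93.8 and 100% in G1, S and G2. In the lists of unsorted cells both were covered, over 66.7 to 77.8% and 87.5 to 100%. These 2 regions thus differed in when they were first called, with DSCAM present at 180 min and TSHZ3 not.

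The opposite pattern, covered in 90m G1 and in none of G1, S and G2, was found for 13 regions with 12.2 Mb. Of these, 10 were of high GC content, 10 lay within 20 Mb of a chromosome end, 3 were covered in bulk and 1 in 180m G1. They held 55 protein-coding genes, or 4.51 per Mb, against 2.44 per Mb over all K562 cTSA-seq only regions. The longest carried GPC3 and GPC4, genes of glypicans, on chromosome X from 131400001 to 133300000 and was called over 78.9% in 90m G1, 5.26% in bulk and S, and 0% in 180m G1, G1 and G2. The region of PCNX2 on chromosome 1 (231900001 to 233500000) had 93.8% in 90m G1, 12.5% in 180m G1 and 0% in every other list. The region of SYT9, a synaptotagmin gene, on chromosome 11 (7200001 to 8600000) had 85.7% in 90m G1, 21.4% in bulk, 180m G1 and S, and 0% in G1 and G2. The regions of ADAM23, an adhesion gene of the ADAM family, and of FHIP1A followed with 70.0 and 66.7% in 90m G1 and 0% in the rest of the 6 lists. Since the 90m G1 list also held 20.2% of the bases that K562 cells had depleted at the lamina, calls at 90 min were broader than the regions named here.

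Several regions differed in class between neighbouring stages without a common order. The region with SNRPN, an imprinted gene of chromosome 15, from 24000001 to 25600000 had 0% at both early times, 93.8% in bulk and in G1, 87.5% in S and 43.8% in G2. The region of RASGEF1B on chromosome 4 (81500001 to 83000000) had 0% in 90m G1, 100% in 180m G1, 46.7% in G2, 80.0% in S and 20.0% in G1. The region with CTNNB1, the gene of beta-catenin, on chromosome 3 (40600001 to 41800000) had 66.7% in bulk and 100% in 180m G1, 0% in 90m G1, G1, S and G2, and 41.7, 0 and 0% with 1000000, 200000 and 50000 cells. Lists of unsorted cells thus disagreed on it. The region of ZNF521 on chromosome 18 (21300001 to 23500000) lay at the limit between classes, with 50.0% in bulk and 180m G1, 45.5% in G1 and G2, and 40.9% in S.

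The longest uncovered regions were uncovered in nearly every list. The regions of GRIP1 on chromosome 12 (66800001 to 68500000), ENOX1, an oxidase gene, on chromosome 13 (43100001 to 44700000), ZNF658 on chromosome 9 (40500001 to 42100000), LHFPL6 on chromosome 13 (39600001 to 41200000) and NRP1, a receptor of semaphorins and VEGF, on chromosome 10 (33400001 to 34900000) measured 1.5 to 1.7 Mb and had 0% in all 9 lists. The regions of CNTNAP3, RCAN2 and PSD3 likewise had 0% in all 9 lists. The region of GPR158, an orphan receptor gene, had 23.1% in S alone, and that of PCNX2 was the 1 called in 90m G1. Of the uncovered regions in bulk, the 1 of highest GC content carried GALNT18 on chromosome 11 (11100001 to 11700000, 44.9% GC) and had 50.0% in 90m G1. The lowest GC content, 36.6%, was found in a covered region on chromosome 9 (27800001 to 28600000) and in an uncovered region on chromosome 15 (36000001 to 36600000), neither with a protein-coding gene. GC content did not set the class of a region by itself.

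The K562 cTSA-seq only regions held 453 protein-coding genes, counting those of which 80% or more was inside, and 53 regions held none. Regions covered in bulk had 162 genes in 94.6 Mb (1.71 per Mb), partly covered regions 82 (4.23 per Mb) and uncovered regions 209 in 71.9 Mb (2.91 per Mb). Covered regions had fewer genes per Mb than uncovered regions in every list, with 2.11 against 2.64 in 90m G1, 1.62 against 2.65 in 180m G1, 1.76 against 2.80 in G1, 1.65 against 2.78 in S and 1.78 against 2.85 in G2. The lists from counted cells gave 1.70 to 2.05 against 2.65 to 2.90. With genes of all types, which include noncoding genes and pseudogenes, bulk had 15.3 per Mb in covered and 16.6 in uncovered regions, and G1 16.0 and 14.8, so with all gene types the order was not the same in every list.

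At the level of genes, 148 of the 453 (32.7%) lay in the bulk list over 80% or more of their length, against 11.1% of all 20163 protein-coding genes. In 90m G1 the count was 99 (21.9%, against 17.2% of all genes), in 180m G1 65 (14.3%, against 5.30%), in G1 97 (21.4%, against 4.81%), in S 107 (23.6%, against 5.38%) and in G2 102 (22.5%, against 4.55%). The lists from counted cells held 99 to 110 of the genes (21.9 to 24.3%, against 4.89 to 5.98% of all genes). The share of these genes was therefore close to that of all genes in 90m G1 and several-fold higher in G1, S and G2.

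**Figure D5:**
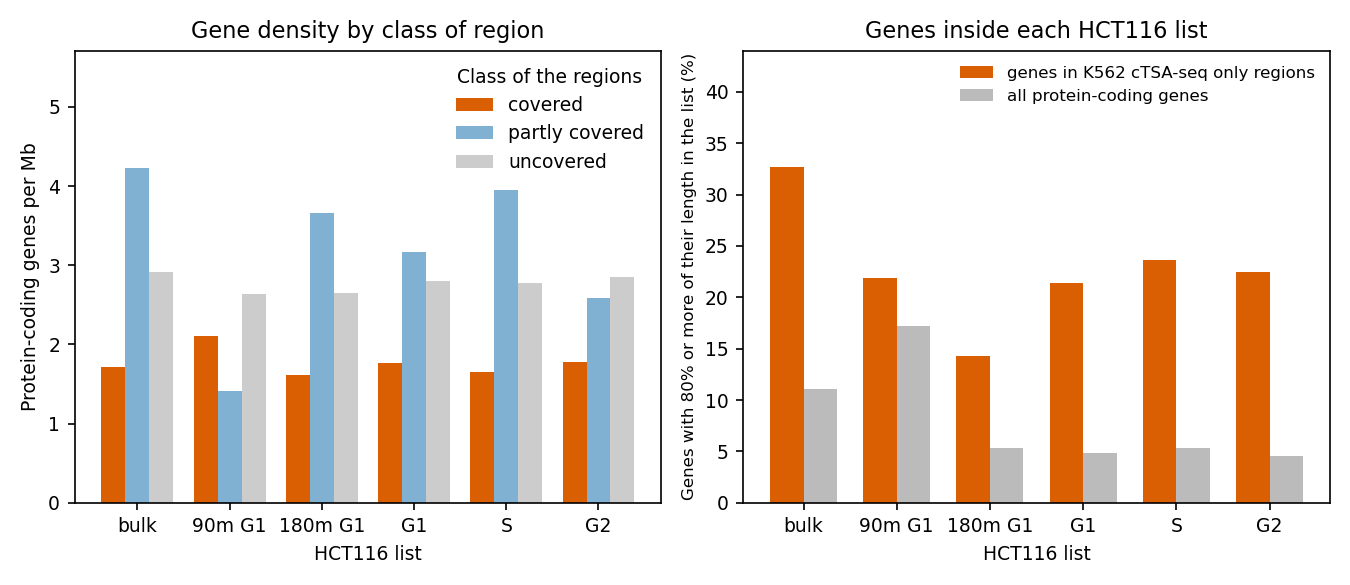
Left, protein-coding genes per Mb in covered, partly covered and uncovered K562 cTSA-seq only regions, by HCT116 list. Right, share (%) of the 453 genes of these regions and of all 20163 protein-coding genes that lie in each list over 80% or more of their length. The covered bar is below the uncovered bar in all 6 lists, and the pair at the right is closest in 90m G1 (21.9 and 17.2%).

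Olfactory receptors, the odorant receptors encoded by large gene clusters, were the largest family among the genes, with 27 of 415 in 6 regions. Members were taken by symbol, and OR4M2-OT1 among them is a gene that spans OR4M2 and is not a receptor of its own. Of the 27, 11 were in the bulk list, 4 in 90m G1, 10 in 180m G1, 18 in G2, 18 in S and 20 in G1. Of all 415, the lists held 155, 71, 170, 142, 141 and 146 in the same order. The lists from counted cells held 23 of the 27 each, and 197, 164 and 194 of the 415 with 1000000, 200000 and 50000 cells. A cluster of 8 on chromosome 1 (region 157500001 to 158600000) with OR6P1, OR6Y1 and OR10K1 lay in the bulk, G1, S and G2 lists, and 6 of the 8, these 3 included, in 180m G1 as well. OR5P2, OR5P3, OR10A3 and OR10A6 on chromosome 11 lay in 90m G1 alone of the 6 lists. A cluster on chromosome 15 with OR4M2 lay in G1 and G2 and not in bulk or S, but it lay in all 3 lists from counted cells. Members of a cluster share a region and are not independent, and some clusters were split, such as that on chromosome 14, where OR11H2 was wholly inside and OR4M1 wholly outside the bulk list. Near-identical copies, such as OR4M2 and OR4M2B, share reads, and their calls are uncertain.

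The other families had few members. Zinc finger ZNF genes had 8 of 515, of which ZNF521, ZNF827, ZNF516, ZNF365, ZNF658 and ZNF519 are the longest, with 4 in the bulk list, 3 in each list from counted cells and 1 in each of the sorted stages. Of all 515, 127 were in bulk, 52 to 120 in the lists from counted cells and 13 to 94 in the sorted stages. Of genes of adhesion and signalling, CDH13, which encodes a cadherin without a transmembrane part, was in all 6 lists, and the Eph receptor gene EPHB1 was in all but 90m G1. Among 40 sodium and calcium channel genes, CACNA2D3 and CACNA1E were in bulk, where 6 of the 40 were, and CACNB2 was wholly outside all 9 lists, as was GRIN2B, the only member of the glutamate and GABA receptors. Of 354 solute carrier genes 7 lay in the regions, and 2 of them in the bulk list, as did 32 of the 354. Of 44 ADAM and ADAMTS genes 4 lay there, with ADAMTS17, ADAMTS18 and ADAMTS9 in bulk, where 13 of the 44 were, and ADAM23 in 90m G1 alone of the 9 lists. With so few members, nothing particular to them can be read from these counts.

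Of 200 developmental transcription factor genes 6 lay in the regions, 2 of them in the bulk list, which held 38 of the 200. FOXF2 and FOXQ1, forkhead genes on chromosome 6, lay wholly in the 90m G1 and 180m G1 lists and in none of the others. FOXI2 was in bulk, 90m G1, S and G2, IRX6 in bulk alone of the 9 lists, and NKX6-1 and POU5F1B in none of the 9. No protocadherin, potassium channel, collagen, semaphorin, serpin, interleukin or keratin gene had 80% of its length in a region. Likewise 0 of 20 erythroid and 0 of 20 intestinal epithelial marker genes did. Since 2.25% of all protein-coding genes lay in the regions, lists of this size say nothing about either lineage.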

How the data were processed

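Lamin-B1 cTSA-seq regions of K562 cells and of 9 HCT116 conditions were read from 14 lists, 5 of which hold K562 regions. Each list the authors deposited gives positions in bp on hg19, the start and end of every region, with no signal, score or count, so the depth per sample is unknown. According to the study's methods and the submitters' processing notes, reads were aligned with Bowtie2 (2.3.2), counted in windows with bedtools (2.26.0), scaled, expressed as the log2 ratio of StrePD to input, turned into z-scores and called with a Hidden Markov Model in depmixS4. By these methods, replicate calls were intersected. The 90m G1 and 180m G1 lists, unlike the others, are not named as consensus lists. The nocodazole arrest lasted 16 h per the labels, a time that the methods give differently.

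Regions were placed on the 30970 windows of 100 kb of chromosomes 1 to 22, X and Y, and 1 mitochondrial and 1 unplaced region were left out. The share of each region's bases in each HCT116 list was computed with Python (3.11.15), and the computation was checked base by base on simulated lists. GC content came from the hg19 sequence without gaps, and genes from GENCODE 44 mapped to hg19, with at least 80% of a gene's length inside. The GC groups were set by rank. Regions of the TSA-seq comparison are the authors' deposited lists. Because lists are merged, no test was made, no paired fit exists, and regions were not resampled.

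Named were the longest gene of the 10 longest covered and 10 longest uncovered regions in bulk, of the 5 longest regions covered in 90m G1 and in none of G1, S and G2, up to 6 members a gene family, the 3 longest regions of each stage pattern, and regions of extreme GC content. Other genes inside a named region (MGMT, MKI67, EBF3, GPC4) and the olfactory receptors OR5P2, OR5P3, OR10A3, OR10A6, OR11H2 and OR4M2B were chosen after their values were seen. The members and lists were chosen with earlier results of these data known. Distance to chromosome ends, the sequences before gene starts, the sizes of HCT116 regions and genes inside lists were added after the data were examined. Alternatives were other coverage thresholds, other bins, joined gaps, autosomes, regions of at least 200 kb, left-out chromosomes, other lists of unsorted cells and other gene rules.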

Additional observations from a re-analysis of the deposited data

How the results depend on the processing

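All values rest on 1 list a condition, so the spread between experiments is known only from the 4 lists of unsorted cells, and the causes of the differences below were not tested. No paired analysis was possible because the lists are merged over replicates and no result comes from a test. Of 133 alternative values, 88 stayed within the interval or the 1.5-fold range of the value reported. With each region counting once, the mean covered share was 41.9% in bulk, 20.3% in 90m G1, 21.1% in 180m G1, 24.7% in G2, 31.2% in S and 27.7% in G1, lower than by bases in each list. In place of bulk, the lists of 1000000, 200000 and 50000 cells gave shares of 33.6, 35.8 and 39.1%, and the count with 1000000 cells was 57. Leaving out 1 chromosome lowered the share to 47.2% in bulk, 25.3% in 90m G1 and 24.3% in 180m G1 at the lowest. Asking for all of a region left 56 regions in bulk, 27 in 90m G1, 16 in 180m G1, 15 in G2, 23 in S and 22 in G1, and asking for 80% left 29 in 180m G1, 40 in G1 and 31 in G2. The regions covered in all of G1, S and G2 were 24 at 80%, and those among them uncovered in 90m G1 were 10 at 80% and 36 at 1 bp.

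The GC difference (percentage points of regions covered, high minus low group) reversed among regions under 0.5 Mb, with -5.56 in bulk, -5.56 in 180m G1, -16.7 in G1 and -11.1 in G2, and was 0 in 90m G1 and S, each over 9 and 18 regions. From 1 Mb upwards it was 90.3 in bulk, 55.4 in 90m G1, 24.3 in 180m G1, 71.6 in G2, 72.1 in S and 74.8 in G1, so that 90m G1 had not the largest value there, and between 0.5 and 1 Mb 72.4 in 90m G1, 26.3 in S and 14.0 in G2. With 2 groups split at the median it was 39.4 in 90m G1, and at 80% coverage it was 16.1 in G2, 49.5 in bulk and 49.3 in 90m G1. The size difference (1 Mb or more minus under 0.5 Mb) was 43.1 at 1 bp and 8.41 at 80% in 180m G1, and 50.2 at 1 bp in G2. With genes of all types the covered regions in bulk held 1446 genes and the uncovered 1190, the reverse of the order of the 162 and 209 protein-coding genes, while per Mb the uncovered regions had more under both counts.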

Other observations

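The share of covered regions differed between chromosomes. On chromosome 16 all 8 regions were covered in bulk, with 9.80 Mb and a median GC content of 42.1%, whereas on chromosome 13 0 of 7 regions were covered in bulk or in 90m G1, with 6.30 Mb and a median GC content of 39.9%. On chromosome 11, 6 of 7 regions were covered in 90m G1 and 4 of 7 in bulk, and on chromosome 9 0 of 14 in 90m G1 and 7 of 14 in bulk. On chromosome 20, 6 of 8 regions were covered in bulk and 1 of 8 in 90m G1. Of the 8 regions on chromosome 16, 4, 5 and 5 were covered with 1000000, 200000 and 50000 cells. The counts in these lists were 3, 2 and 2 on chromosome 9 and 1, 2 and 3 on chromosome 11, below bulk. On chromosomes 13 and 20 they equalled those in bulk. These chromosomes were picked after their values were seen, and each holds few regions.

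The 18 regions covered in bulk and in none of G1, S and G2 had a median size of 0.60 Mb, and 2 of them were covered in 180m G1.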
